A study of Rattus norvegicus with 18 samples.

Results

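Primary rat inner medullary collecting duct (IMCD) cells were compared after a step to 900 mosmol/kg and after a step to 600 mosmol/kg. Each step raised the osmolality by 300 mosmol/kg and lasted 24 h, without drug. The comparison used 6 of the study's 18 arrays, chosen by their labels: 3 of cells grown at 600 mosmol/kg and then kept at 900 mosmol/kg (the 900 challenge), and 3 of cells grown at 300 mosmol/kg and then kept at 600 mosmol/kg (the 600 challenge). The 12 other arrays were used beside them: 3 of unchallenged cells grown at 300 mosmol/kg, 3 of unchallenged cells grown at 600 mosmol/kg, and 3 of each challenge with 5 µM cyclosporin A, which blocks calcineurin, a phosphatase. All 18 arrays were of IMCD primary cultures. By the labels no culture was given a mock step, so the 900 and 600 challenges differed both in the osmolality reached and in the osmolality of growth before the step, and the parts of these cannot be told apart. Whether arrays of 1 group stem from different animals or dishes is not stated, so p-values reflect array-to-array spread alone, which may be technical. The third array of the 900 challenge is replicate 3 by its title and carries another replicate number in its source name.

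The collecting duct is the last segment of the kidney tubule. Its principal cells take water back through the water channels aquaporin 2, 3 and 4 under the control of vasopressin, and in the inner medulla they also pass urea into a very hypertonic interstitium. Cells that live there accumulate organic osmolytes such as inositol, sorbitol and taurine, largely under the transcription factor NFAT5 (TonEBP), which keep their volume without raising the salt inside the cell.

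The deposited values are logarithms of a base that the sources used here do not give. A difference of 1 log unit is 2-fold for logarithms to base 2 and 2.72-fold for natural ones. Array medians lay between 3.564 and 3.649 and lower quartiles between 2.476 and 2.696. The lowest of these quartiles, 2.476, served as the cutoff, and levels under it are not shown to stand above background. Means between 2.476 and 2.696 lay under the lower quartiles of some arrays only and are not counted as under the cutoff. Among the genes named below, the lower of the means of the 900 and 600 challenges was under the cutoff for Aqp2, Scnn1a, Bsnd, Rhbg, Kcnq1, Krt17, C1qa, Areg, Alox15b, Clic3, Hcar2 and Ppargc1a. It was also under the cutoff for C3ar1, S100a8, Fgr, Fgf18 and Ccl6, and for at least 2 of the 4 principal cell genes that did not pass the test. The differences of these genes describe the deposited values, and the size of the change behind them is not settled. Over features, the SD among the 3 arrays had a median of 0.12 in both challenges. Between 2 arrays, the SD of the differences over all features was 0.258 to 0.301 within a group and 0.470 to 0.477 between the 900 and 600 challenges. The number of arrays limits the precision.

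Over all 28328 features, limma called 7422, or 26.2%, at an adjusted p under 0.05 (Benjamini-Hochberg): 3099 higher after the 900 challenge (10.9%) and 4323 lower (15.3%). Of these, 541 (1.91% of all features) were higher and 390 (1.38%) lower by at least 1 log unit. The median difference over all features was -0.03. All 3 values of the 900 challenge lay above all 3 of the 600 challenge in 15.9% of the features and below them in 22.2%, so that the groups did not overlap in 38.0%. When each of the 14499 genes with a symbol was represented by its brightest feature, 33.4% were called, 15.0% higher and 18.4% lower. Those are the shares against which the gene lists below are to be read, since every list used the brightest feature of each gene. The features without a symbol were called less often, in 17.7% of cases. In the bulk RNA of a culture, fewer cells of a type and less RNA per cell cannot be told apart.

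Most of the measured genes of the principal cell were higher after the 900 challenge. Aqp2, the vasopressin-regulated water channel, had the largest difference in deposited values among the rises with a symbol. Its levels were 8.02, 7.92 and 7.88 on the arrays of the 900 challenge and 2.50, 2.00 and 2.35 on those of the 600 challenge. The groups stood far apart, and the mean of the 600 challenge lay under the arrays' lower quartiles. The difference was 5.66 ± 0.14 log units (SE; limma adjusted p = 1.33e-12), and no fold is given because the lower level is not shown to be above background. Slc14a2, the urea transporter of the inner medulla, was at 7.09, 7.06 and 6.91 against 3.09, 3.19 and 3.22, a rise of 3.85 ± 0.11. Aqp3, the basolateral water channel, was at 6.77, 6.66 and 6.73 against 3.27, 3.00 and 3.09, a rise of 3.60 ± 0.15. For both genes every value of the 900 challenge exceeded every value of the 600 challenge by more than 3 log units. Avpr2, the vasopressin receptor that drives this water channel system, rose by 3.31 ± 0.11, with values of 6.84, 6.71 and 6.64 against 3.71, 3.16 and 3.40. Fxyd4, which modulates the sodium pump of the collecting duct, rose by 3.74 ± 0.13. Elf5, an ETS transcription factor found in principal cells, rose by 3.63 ± 0.12 with values of 7.05, 7.05 and 7.03 against 3.36, 3.41 and 3.45.

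Of the 21 measured members of the list of principal cell and urine concentration genes, 16 rose, 1 fell and 4 did not pass the test, with a median difference of 0.81 beside -0.02 over the brightest features of all genes. The other risers included Aqp4 (2.41 ± 0.15), the sodium channel subunit gene Scnn1a (1.60 ± 0.07), the mineralocorticoid receptor gene Nr3c2 (1.32 ± 0.18) and Hoxb7 (0.81 ± 0.13), a homeobox gene of the ureteric bud. Gata3, a transcription factor of the collecting duct lineage, was at 7.54, 7.54 and 7.52 against 6.05, 6.10 and 5.97. It stood above the arrays' medians in both challenges, as did Cdh16, the kidney cadherin, at 8.31 ± 0.04 and 7.70 ± 0.02 (SD, n = 3). Gata3 and Cdh16 thus had high levels in both groups, while Aqp2 was under the lower quartiles in the 600 challenge. Kcne1, a potassium channel subunit, was the member that fell (-0.42 ± 0.15, limma adjusted p = 0.0453), and this call was lost in 9 of 13 alternative settings. The 4 that did not pass were the sodium channel subunit genes Scnn1b and Scnn1g, Hsd11b2 and Tfcp2l1. In 2 of the 21 members, both among these 4, the means of both challenges lay under the lower quartiles. The mean level of all 21 members was 5.29 to 5.30 on the arrays of the 900 challenge and 3.68 to 3.70 on those of the 600 challenge.

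**Figure D1:**
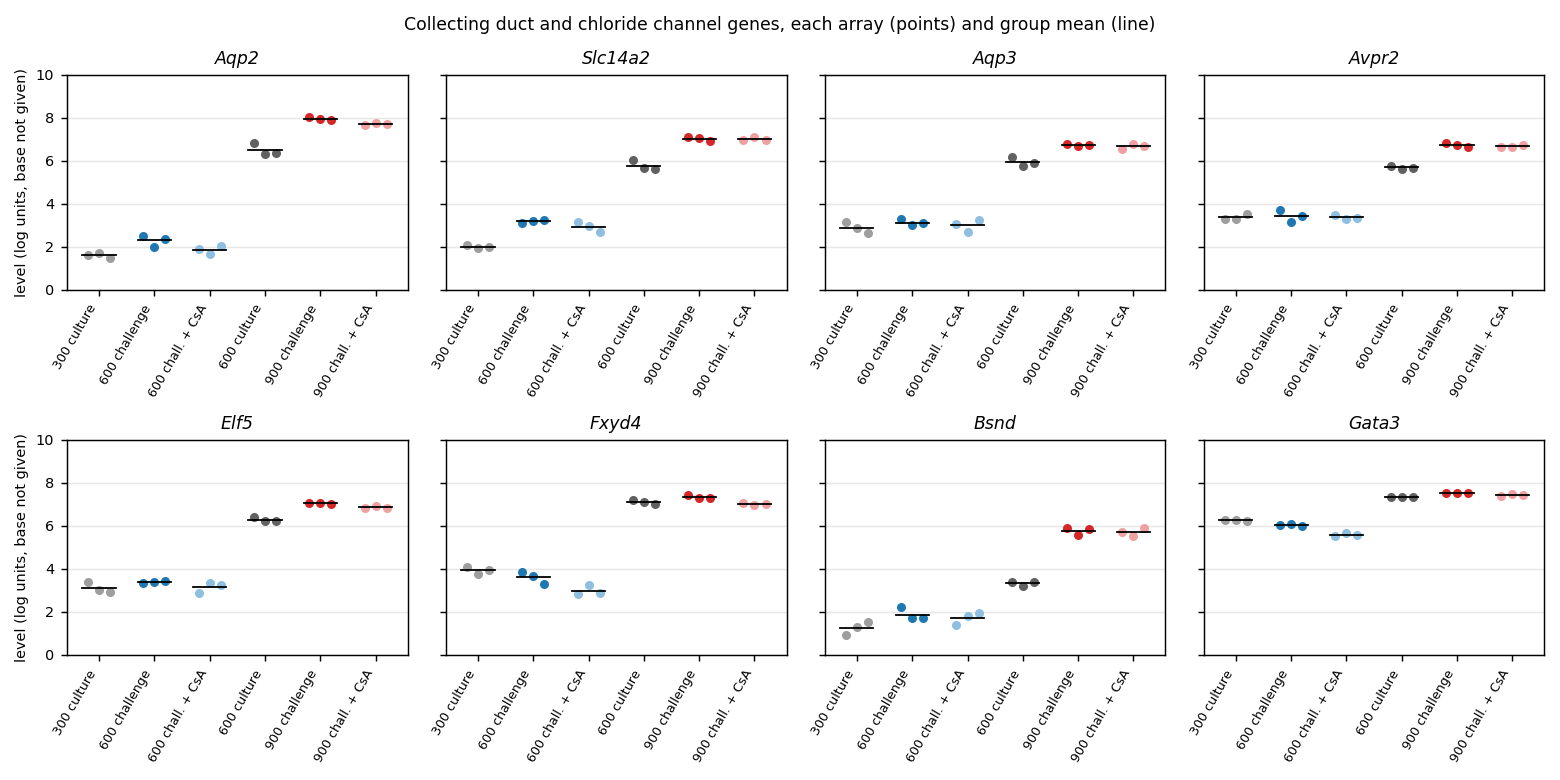
Level of 8 genes on each of the 18 arrays, in log units of unknown base, by group (points are arrays, lines are means of 3 arrays). In all 8 panels the 3 arrays of the 900 challenge lie above those of the 600 challenge. In the Aqp2 panel the unchallenged 600 culture also lies at a mean of 6.50, and the 300 culture at 1.61.

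Genes of other tubule segments did not move as one. Markers of the loop of Henle rose in 7 of 10 cases and fell in 0, with a median of 0.98. Bsnd, the barttin subunit of the basolateral chloride channels, was at 5.91, 5.55 and 5.87 against 2.23, 1.70 and 1.71, a difference of 3.90 ± 0.19 (limma adjusted p = 7.88e-10). Here too the groups stood apart and the lower one lay under the lower quartiles. Other risers were the claudin gene Cldn10 (2.22 ± 0.11), the water channel gene Aqp1 (2.07 ± 0.08) and Slc12a1, the Na-K-2Cl cotransporter of the thick limb (1.67 ± 0.15). The mean level of these 10 markers was 4.71 to 4.74 after the 900 challenge and 3.42 to 3.47 after the 600 challenge. Of the 14 markers of intercalated cells, which secrete acid or base, 4 rose and 1 fell, and their median was 0.13. The carbonic anhydrase gene Car12 rose by 2.44 ± 0.09 and the ammonia transporter gene Rhbg by 1.97 ± 0.17. Slc26a4, the anion exchanger pendrin, was at 3.46, 3.39 and 3.41 against 6.18, 6.03 and 6.14 and fell by 2.70 ± 0.07. In 6 of the 14 cases both means lay under the lower quartiles. Proximal tubule markers had 1 rise and 3 falls in 15, a median of 0.05, and both means under the lower quartiles in 7 cases.

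Ion pumps and volume regulators were split, with 4 rises and 5 falls among 16 members and a median of 0.06. Besides Bsnd, which is also on this list, Fxyd2 of the sodium pump rose by 1.25 ± 0.10, and the exchanger gene Slc9a4 and the kinase gene Stk39 rose by 0.84 ± 0.06 and 0.50 ± 0.07. The falls included the kinase gene Wnk1 (-0.45 ± 0.08) and the volume-regulated anion channel gene Lrrc8a (-0.42 ± 0.10), whose call was lost in 1 of 14 alternative settings. Among potassium and chloride channels, 5 of 19 rose and 3 fell, with a median of 0.18. Kcnq1 rose by 1.78 ± 0.14, and Cftr, the chloride channel of cystic fibrosis, fell by 1.14 ± 0.09.

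Interferon response genes formed the other large group that was higher after the 900 challenge. Interferons switch on antiviral genes, many of which carry the interferon-stimulated response element in their promoters. Of 24 measured members of the list, which also holds genes of MHC class I presentation, 22 rose, 1 fell and 1 did not pass, and their median was 1.12. Mx1, an antiviral GTPase, was at 7.32, 7.17 and 7.21 against 3.51, 3.21 and 3.65, a rise of 3.78 ± 0.24 (limma adjusted p = 1.73e-08). Irf7, a transcription factor that amplifies the interferon response, was at 6.14, 6.02 and 6.14 against 2.52, 2.33 and 3.04 and rose by 3.47 ± 0.17. No value of one group reached the range of the other for either gene. The antiviral genes Mx2 (3.20 ± 0.12), Ifit1 (3.05 ± 0.23), Oasl (2.71 ± 0.12), Rsad2 (2.32 ± 0.14), Ifit3 (2.26 ± 0.23) and Oas1a (2.09 ± 0.09) followed. Usp18, which removes the ubiquitin-like protein ISG15 from its targets, rose by 2.20 ± 0.10, and Isg15 itself by 1.62 ± 0.06. Irf9 and Stat2 rose by 1.30 ± 0.07 and 0.67 ± 0.05. Of the genes that cut and carry peptides for MHC class I, Tap1 rose by 0.92 ± 0.07, Psmb9 by 0.80 ± 0.07 and Psmb8 by 0.68 ± 0.07. Gbp2, an interferon-induced GTPase, was the member that fell, from 6.20, 6.24 and 6.22 to 5.27, 5.01 and 5.21. Irf1, which responds to interferon and to NF-kB, was at 5.72, 5.69 and 5.75 against 5.74, 5.79 and 5.74. These overlapped and differed by -0.04 ± 0.05 (limma adjusted p = 0.655).

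Promoter windows of RefSeq (assembly GRCr8), which run from 250 bases before to 50 after the gene start, were searched on both strands for GAAA, any 2 bases and GAAA again, a short form of the interferon-stimulated response element that was chosen after the values had been seen. Of the 22 risers of the interferon list, 17 had a window, and 12 of these 17 (70.6%) held the motif, beside 3.54% of the 11962 measured genes with a window and 3.92% of all 33469 windows. Among all 24 measured members, risers or not, 19 had a window and 13 of these (68.4%) held the motif, Gbp2 among them. The list was made of interferon response genes, so this share does not bear on the difference between the challenges. Stretches around the match are shown for 4 of the risers because they carry the shared feature of this group. The match is in capitals, and each sequence reads in the direction of its gene. In the first 3 the match is on the opposite strand, so its letters read as TTTC.
Irf7: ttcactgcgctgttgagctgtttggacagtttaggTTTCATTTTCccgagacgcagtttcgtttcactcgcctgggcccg
Rsad2: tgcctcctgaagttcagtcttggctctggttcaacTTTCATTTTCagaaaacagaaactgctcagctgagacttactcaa
Ifit3: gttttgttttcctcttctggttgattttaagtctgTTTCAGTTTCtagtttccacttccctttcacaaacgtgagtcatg
Oas1a: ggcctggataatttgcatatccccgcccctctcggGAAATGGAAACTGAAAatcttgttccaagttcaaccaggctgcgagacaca
They lie at chr1:205800048-205800127 on the minus strand (Irf7), chr6:48788223-48788302 on the minus strand (Rsad2), chr1:241527247-241527326 on the plus strand (Ifit3) and chr12:41330390-41330475 on the plus strand (Oas1a). The match begins 69, 147, 44 and 41 bases before the annotated start. In Oas1a 2 overlapping matches form the capitals. The core of the tonicity element bound by NFAT5, TGGAAA, was searched for in the same way, and can overlap the interferon motif, as it does in Oas1a. TGGAAA was in 0 of 14 windows of the 20 largest rises and in 1 of 12 of the 20 largest falls (Fbln2), beside 20% of the measured genes with a window. Among the risers of the interferon list it was in 8 of 17 windows (47.1%). The cyclic AMP response element TGACGTCA was in none of these windows (0 of 14 and 0 of 12), beside 2.51% of the measured genes. A match is a description of letters in a window, and no match says nothing of a factor's binding elsewhere.

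Inflammatory genes were lower after the 900 challenge. The list of NF-kB targets and chemokines had 24 measured members, of which 18 fell, 2 rose and 4 did not pass, with a median of -0.82. Cxcl6, a chemokine that attracts neutrophils, had the largest fall of all genes with a symbol. It was at 3.62, 4.08 and 3.68 after the 900 challenge and at 8.62, 8.46 and 8.55 after the 600 challenge. The difference of -4.75 ± 0.13 (limma adjusted p = 2.16e-12) is 26.9-fold for logarithms to base 2 and 116-fold for natural ones. The related chemokine Cxcl1 was at 5.76, 5.66 and 5.67 against 8.08, 8.05 and 8.08, a difference of -2.37 ± 0.07. Il1a, the cytokine interleukin 1 alpha, was at 3.59, 3.71 and 3.56 against 6.52, 6.51 and 6.61 (-2.93 ± 0.08), and C3, the central complement component, at 6.002, 6.195 and 6.032 against 8.169, 8.124 and 8.135 (-2.07 ± 0.06). For each of these genes the 2 groups were separated by more than 1 log unit. The granulocyte growth factor gene Csf3 (-2.30 ± 0.06), Cxcl2 (-2.32 ± 0.19), Il1b (-2.12 ± 0.11), Tnf (-1.33 ± 0.08) and the iron-binding lipocalin gene Lcn2 (-1.06 ± 0.05) fell as well. The NF-kB subunit genes Nfkb1 and Nfkb2 differed by -0.79 ± 0.05 and -0.59 ± 0.08. The risers were Cxcl10 (1.89 ± 0.11), a chemokine induced by interferon, and Ccl20 (0.74 ± 0.08), which attracts cells through CCR6.

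Markers of leukocytes moved with them. Of 18 measured markers 16 fell and 0 rose, with a median of -0.96. The mean level of the 18 was 3.49 to 3.54 on the arrays of the 900 challenge and 4.43 to 4.55 on those of the 600 challenge, and no marker was listed at 0. The Fc receptor chain gene Fcer1g was at 3.54, 3.54 and 3.39 against 5.28, 5.32 and 5.14 (-1.76 ± 0.08). The complement genes of macrophages C1qa (-1.70 ± 0.15) and C1qc (-1.66 ± 0.13), the integrin gene Itgam (-1.31 ± 0.10), the lysozyme gene Lyz2 (-1.26 ± 0.10) and the pan-leukocyte gene Ptprc (-0.95 ± 0.10) fell too. Of 10 MHC class II genes, which leukocytes also express, 6 fell and 0 rose, led by RT1-Da (-1.89). Vsig4, a complement receptor of macrophages, was among the 20 largest falls of all genes (-2.99 ± 0.08). Before the step the 18 leukocyte markers had a mean level of 4.53 to 4.63 in the 600 culture and 5.81 to 5.87 in the 300 culture. The part of leukocyte number in the inflammatory result was not tested.

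**Figure D2:**
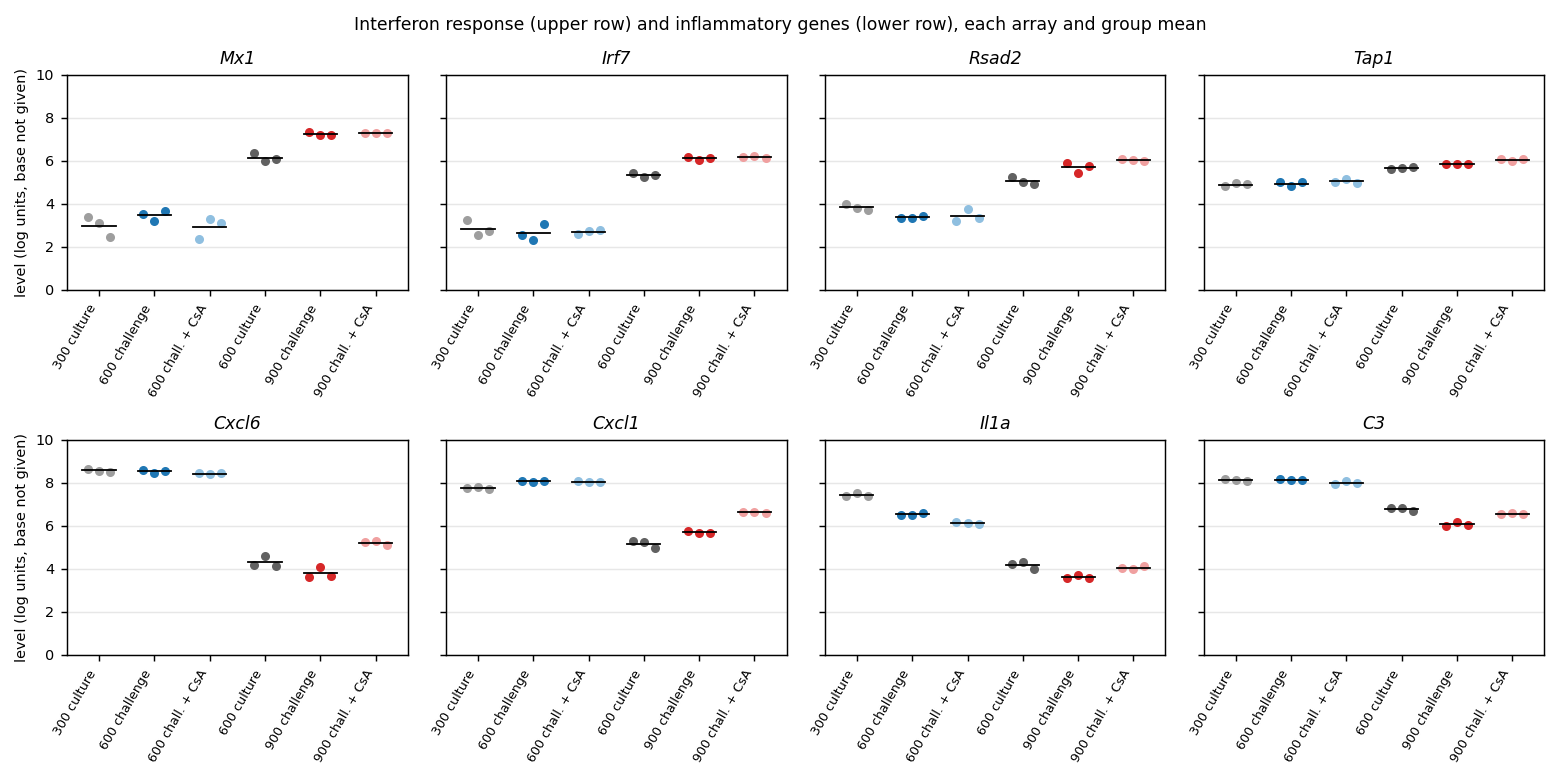
Level of 4 interferon response genes (upper row) and 4 inflammatory genes (lower row) on each array, in log units of unknown base (points are arrays, lines are means of 3). The 900 challenge lies above the 600 challenge in the upper row and below it in the lower row. With cyclosporin A the 900 challenge has a higher Cxcl6 mean (5.22) than without (3.79).

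Genes of the extracellular matrix were mostly lower. Of 17 measured matrix and matricellular genes 15 fell and 1 rose, and the median was -0.59. The growth factor gene Tgfb2 was at 5.61, 5.86 and 5.71 against 7.61, 7.63 and 7.64, a difference of -1.90 ± 0.06 (limma adjusted p = 2.49e-11). Ccn1, a matricellular protein gene induced by cell spreading and YAP, was at 6.098, 6.250 and 6.332 against 7.998, 7.932 and 7.935 (-1.73 ± 0.06). Its relative Ccn2 differed by -1.32 ± 0.06, the basement membrane collagen gene Col4a1 by -0.65 ± 0.08 and the matrix cross-linking gene Loxl2 by -1.04 ± 0.06. Fibronectin, Fn1, was at 6.92, 7.18 and 7.02 against 8.60, 8.64 and 8.66 (-1.59 ± 0.07). Ankrd1, another target of YAP, was among the 20 largest falls at 4.85, 4.87 and 4.72 against 7.28, 7.25 and 7.29 (-2.46 ± 0.07). The same 20 held the integrin gene Itgb3 (-2.56 ± 0.05), the gap junction gene Gja1 (-2.83 ± 0.10), the actin-binding gene Pdlim4 (-2.60 ± 0.10), the matrix gene Fbln2 (-2.39 ± 0.14) and the ligand gene Wnt5b (-3.08 ± 0.12).

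Matrix proteases and their inhibitors fell in 11 of 19 cases and rose in 5, with a median of -0.61. The gelatinase gene Mmp9 was at 3.01, 3.39 and 3.13 against 5.55, 5.68 and 5.47 (-2.39 ± 0.11), and the membrane-bound Mmp14 differed by -0.99 ± 0.06. The risers were Timp3, a tissue inhibitor of these proteases (1.57 ± 0.07), the plasminogen activator genes Plau (0.84 ± 0.04) and Plat (0.51 ± 0.04), the collagenase gene Mmp13 (0.60 ± 0.10) and the aggrecanase gene Adamts1 (0.23). The call of Adamts1 was lost in 8 of 14 alternative settings and that of Mmp13 in 1. Markers of other cells of the interstitium were less uniform. Fibroblast markers had 2 rises and 6 falls in 18 (median -0.05), with a mean level of 4.54 to 4.62 against 4.66 to 4.73, and smooth muscle and pericyte markers had 2 rises and 6 falls in 15 (median -0.10), with 4.77 to 4.91 against 4.98 to 5.05. None of these markers was listed at 0. Fn1, Vim and Postn, which fell, and S100a4, which rose, are on the fibroblast list. Endothelial markers rose in 6 of 13 cases and fell in 2 (median 0.33), led by the fenestral diaphragm gene Plvap at 6.60, 6.81 and 6.70 against 4.69, 4.83 and 4.58 (2.00 ± 0.10), with a mean level of 5.04 to 5.15 against 4.67 to 4.76. The part of these cell types in the results was not tested.

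Among epithelial junction and keratin genes, 11 of 23 rose and 6 fell, with a median of 0.13. The apical membrane protein gene Mal rose by 1.81 ± 0.07 and the claudin gene Cldn8 by 1.13 ± 0.07. The keratin genes Krt8, Krt18 and Krt7 differed by -0.49 ± 0.05, -0.55 ± 0.05 and -0.55 ± 0.11, and Krt17, a keratin of stressed epithelium, by -2.26 ± 0.26. Ligands of the EGF receptor were split: Btc rose by 0.55 ± 0.06 and Areg, Ereg and Hbegf differed by -1.03 ± 0.19, -0.83 ± 0.13 and -0.59 ± 0.05.

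The genes that build up organic osmolytes did not move as a group, with 3 rises, 3 falls and 3 that did not pass among 9 members and a median of 0.01. Slc5a3, the inositol transporter, was at 7.05, 7.09 and 6.95 against 5.69, 5.67 and 5.65, a rise of 1.36 ± 0.06 (limma adjusted p = 2.81e-10) with no overlap. Akr1b1, the aldose reductase that makes sorbitol, was high in both groups, at 9.12, 9.11 and 9.06 against 8.90, 8.89 and 8.88. Its difference was 0.20 ± 0.06 (limma adjusted p = 0.0211), and the call was lost in 5 of 14 alternative settings. Slc6a6, the taurine transporter, was lower, at 6.55, 6.59 and 6.55 against 7.31, 7.18 and 7.04 (-0.61 ± 0.08). Gdpd5, whose enzyme breaks down the osmolyte glycerophosphocholine, was at 2.49, 2.63 and 2.38 against 4.03, 3.84 and 3.87 (-1.41 ± 0.10). Nfat5 itself was at 4.63, 5.13 and 4.94 against 4.83, 4.72 and 4.99, which overlapped (0.05 ± 0.12, limma adjusted p = 0.827). Of the 19 heat shock and chaperone genes 7 rose and 3 fell. The small heat shock protein gene Hspb1 rose by 0.99 ± 0.06, and the Hsp110 genes Hsph1 and Hspa4l by 0.94 ± 0.04 and 0.76 ± 0.05.

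Targets of ATF4 and CHOP, the transcription factors of the integrated stress response, rose in 16 of 25 cases and fell in 4, with a median of 0.40. Genes of serine synthesis stood among them: Psat1 was at 7.06, 7.09 and 7.09 against 5.67, 5.85 and 5.72 (1.33 ± 0.07), and Phgdh at 4.57, 4.62 and 4.59 against 3.36, 3.29 and 3.40 (1.25 ± 0.11). Both were separate without exception. The pseudokinase gene Trib3 rose by 0.81 ± 0.13, the mTORC1 inhibitor gene Ddit4 by 0.84 ± 0.07, the amino acid transporter gene Slc7a5 by 0.77 ± 0.12 and the asparagine synthetase gene Asns by 0.67 ± 0.12. The calls of Slc7a5 and Asns were each lost in 1 of 14 alternative settings. Chaperones of the endoplasmic reticulum, which the unfolded protein response induces, had 5 rises and 4 falls among 22 members and a median of 0.00.

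Of 16 prostaglandin genes, 7 rose and 2 fell, with a median of 0.30. Ptgs1, the constitutive cyclooxygenase, was at 7.77, 7.68 and 7.64 against 5.75, 5.63 and 5.52 (2.06 ± 0.06). Ptges, which makes prostaglandin E2, was at 4.92, 4.93 and 4.88 against 3.51, 3.43 and 3.75 (1.35 ± 0.13). Ptgs2, the inducible cyclooxygenase, lay the other way, at 5.19, 5.05 and 4.96 against 5.91, 5.80 and 5.81 (-0.77 ± 0.11, limma adjusted p = 6e-05). In all 3 genes the groups were apart. Genes of other lipid mediators were among the 20 largest rises: the lipoxygenase gene Alox15b (3.67 ± 0.14), Ptgr1, whose enzyme reduces prostaglandins and leukotrienes (3.01 ± 0.12), and the ceramidase gene Acer2 (3.35 ± 0.09). Of the 13 calcium-binding S100 genes measured, 8 rose and 2 fell, with a median of 0.87. S100a4 rose by 2.11 ± 0.10, S100a1 by 1.95 ± 0.13 and S100a6 by 1.57 ± 0.05, whereas S100a9, a protein of neutrophils and monocytes, fell by 1.49 ± 0.12.

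The remaining genes named for their size were as follows. Akr7a3, an aldehyde reductase, was at 7.05, 7.04 and 6.96 against 3.18, 3.14 and 3.14 and rose by 3.87 ± 0.06. Lypd2, which encodes a protein of the Ly6 family, rose by 4.10 ± 0.15. Klhdc8a (3.27 ± 0.14), the intracellular chloride channel gene Clic3 (2.92 ± 0.15), the glycoprotein hormone subunit gene Gpha2 (2.77 ± 0.18) and the solute carrier gene Slc45a3 (2.76 ± 0.13) rose as well. Olfm4, a secreted glycoprotein of epithelia, was at 2.95, 3.04 and 3.04 against 7.49, 7.37 and 7.35, a difference of -4.40 ± 0.12. The other falls were the odorant receptor gene Or2a25 (-3.53 ± 0.08), Clca4l (-3.51 ± 0.14), Sertad4 (-3.31 ± 0.08), Dlgap5l2 (-2.98 ± 0.11), the cytokine gene Il24 (-2.85 ± 0.18), the retinol dehydrogenase gene Rdh16 (-2.69 ± 0.19), the niacin receptor gene Hcar2 (-2.57 ± 0.12) and Prnd (-2.49 ± 0.14). The value of Dlgap5l2 is that of 1 of its 3 features, chosen for its size, and not of the brightest. Of the 20 rises, the mean of the 600 challenge lay under the lowest lower quartile (2.476) in 4, and of the 20 falls, the mean of the 900 challenge did in 1. Between it and the highest lower quartile (2.696) lay the 600 challenge means of Lypd2, Irf7, Ifit1 and Gpha2. The 900 challenge means of Or2a25, Clca4l, Wnt5b, Rdh16 and Fbln2 lay there too. These levels are not shown to stand clear of background either.

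DNA replication genes had 4 rises and 1 fall among 25 (median 0.08), and mitosis genes 6 rises and 1 fall among 25 (median 0.19). Genes of hypoxia and glycolysis rose in 11 of 25 cases and fell in 6 (median 0.09). Pfkfb3, which stimulates glycolysis, rose by 1.34 ± 0.09, and Adm, the vasodilator adrenomedullin, fell by 2.10 ± 0.16. Of 27 mitochondrial respiration genes, 7 rose and 1 fell (median 0.07), with Ppargc1a, a regulator of mitochondrial biogenesis, at 3.91, 3.83 and 4.03 against 2.15, 2.04 and 1.67 (1.97 ± 0.13). Other lists were divided: 7 rose and 7 fell of 20 amino acid transporters, 6 and 6 of 24 AP-1 and early response genes, 8 and 7 of 22 targets of NRF2 (oxidative stress), 4 and 5 of 18 genes of sterol synthesis, and 6 and 5 of 15 genes of fatty acid synthesis. Falls outnumbered rises among p53 targets (4 rose and 7 fell of 16), tubule injury genes (3 and 7 of 14) and genes of calcineurin and NFAT (1 and 4 of 15). Over all genes 15.0% rose and 18.4% fell, so falls outnumbered rises there too. The called share of the calcineurin and NFAT list lay near the 33.4% of all genes. Of 14 common reference genes, 3 rose, 2 fell and 9 did not pass. Actb (-0.06 ± 0.04, limma adjusted p = 0.302) and Gapdh (0.09 ± 0.04, limma adjusted p = 0.179) were among the last, while Hprt1 was at 5.96, 5.83 and 6.06 against 7.37, 7.29 and 7.50 and fell by 1.44 ± 0.07.

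**Figure D3:**
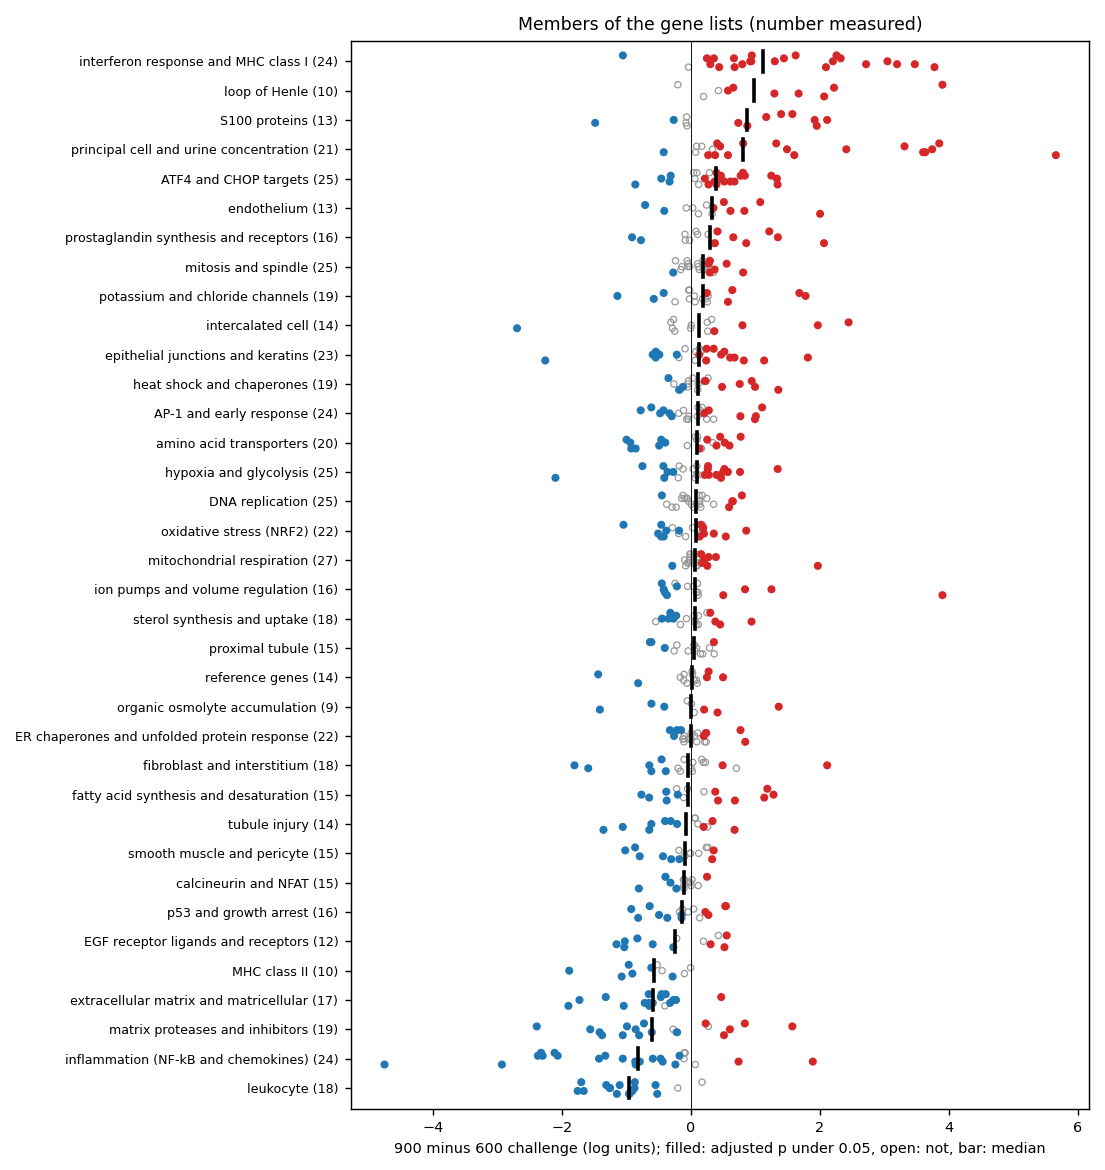
Difference between the 900 and 600 challenges in log units for each measured member of the 36 gene lists (1 point a gene, filled where the limma adjusted p is under 0.05, bar at the median), with the number measured in brackets. The interferon list (median 1.12) is at the top and the leukocyte list (median -0.96) at the bottom.

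The same comparison was available on 6 arrays that share none with the first, those with cyclosporin A in both challenges. It called 7279 features (25.7%), 3177 higher (11.2%) and 4102 lower (14.5%). Of the features higher without the drug, 2466 were also higher with it, which is 79.6% of the first list and 77.6% of the second. Of those lower without the drug, 3119 were lower with it (72.1% and 76%). Of the features that differed by at least 1 log unit, 525 of 541 and 380 of 390 were called in the same direction. Their median differences were 1.39 and 1.40 without and with the drug for the higher and -1.35 and -1.34 for the lower. Over all 28328 features Pearson's r between the differences was 0.836 and Spearman's rho 0.617, as a description across features that are not independent. All 20 of the largest rises and all 20 of the largest falls were called in the same direction with the drug, with Aqp2 at 5.84 ± 0.14, Irf7 at 3.46 ± 0.17 and Mx1 at 4.36 ± 0.24. So were all 22 risers of the interferon list and 15 of the 16 risers of the principal cell list.

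The test of the difference between the 2 comparisons called 13 features (0.0459%), 11 with a more positive (0.0388%) and 2 with a more negative (0.00706%) difference under the drug. The count depended on the setting: it was 4 to 17 with 1 array left out, 5 on the arrays compared alone, and 27 to 44 with filters on low values or a variance trend. Of the 12 with a symbol, 7 were on the list of NF-kB targets and chemokines. Cxcl6 differed by -4.75 ± 0.13 without and by -3.21 ± 0.13 with the drug, a change of 1.55 ± 0.18 (limma adjusted p = 0.00342). Its level after the 900 challenge was 3.79 ± 0.25 without and 5.22 ± 0.11 with the drug, while after the 600 challenge it was 8.54 ± 0.08 and 8.43 ± 0.02 (SD, n = 3). Cxcl1 changed by 0.95 ± 0.10 and Ccl20 by 1.06 ± 0.11 (limma adjusted p = 0.00299 for each). These 3 calls held in all 19 alternative settings. That of Cxcl11, a chemokine induced by interferon, which changed by 0.99 ± 0.11 (limma adjusted p = 0.00342), was lost in 1 of them. The other changes with a symbol and a place among the 10 largest in their direction were those of Il1a, Aldh1a3, Ifi47, C3, Csf3, Birc3 and Efhd1, whose calls were lost in 5 to 13 of 19 settings.

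**Figure D4:**
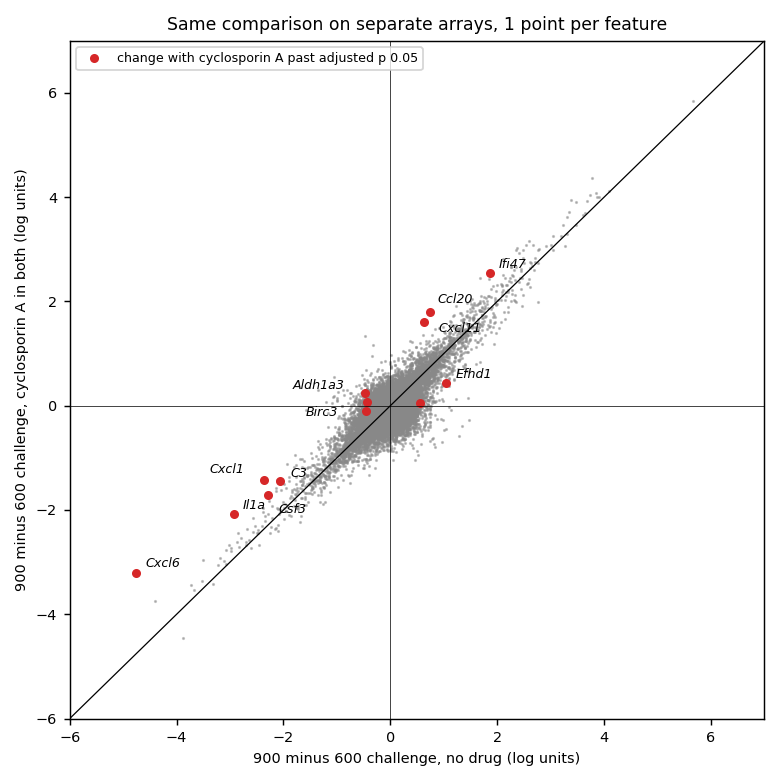
Difference between the 900 and 600 challenges with cyclosporin A in both (vertical axis, log units) against the difference without the drug (horizontal axis, log units), 1 point a feature. Points near the diagonal differ alike on both sets of arrays, and the 13 large points changed past an adjusted p of 0.05.

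The cultures from which the challenges started differed as well, by growth at 600 or 300 mosmol/kg, and these 6 arrays share none with the challenges. The 600 and 300 cultures differed in 4863 features (17.2%), 2360 higher (8.33%) and 2503 lower (8.84%) in the 600 culture. Of the features higher after the 900 than after the 600 challenge, 1626 were also higher in the 600 culture, which is 52.5% of the first list and 68.9% of the second, and 67 were lower. Of those lower after the 900 challenge, 1712 were lower in the 600 culture (39.6% and 68.4%) and 50 were higher. Pearson's r across features was 0.678 and Spearman's rho 0.438. Among features that differed by at least 1 log unit between the challenges, 441 of 541 and 340 of 390 were already called in the same direction between the starting cultures. All 20 of the largest rises and all 20 of the largest falls were among the genes so called. Aqp2 was at 6.50 ± 0.30 in the 600 culture and at 1.61 ± 0.12 in the 300 culture, Slc14a2 at 5.77 ± 0.23 and 1.98 ± 0.06, and Cxcl6 at 4.30 ± 0.26 and 8.58 ± 0.07 (SD, n = 3).

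The difference between the challenges was therefore also tested against that between the starting cultures, which is the same as testing whether the step from 600 to 900 mosmol/kg and the step from 300 to 600 mosmol/kg differed. This called 2148 features (7.58%), 997 with a more positive (3.52%) and 1151 with a more negative (4.06%) difference between the challenges. Of the 541 features higher by at least 1 log unit, 230 exceeded the difference of the starting cultures, 14 fell short of it and 297 were not called. Of the 390 lower ones, 164 exceeded it, 34 fell short and 192 were not called. Among those that exceeded it, the starting cultures themselves had not been called in 64 and 27 cases. Both sets were chosen for a large difference between the challenges, which is itself part of the difference tested. This choice favours exceeding over falling short, so no conclusion is drawn from these counts. For Aqp3 the departure from the starting cultures was 0.54 ± 0.22 (limma adjusted p = 0.164), and Fxyd4 and Elf5 did not pass either (limma adjusted p = 0.0871 and 0.109). Avpr2 had a departure of 0.98 ± 0.16 (limma adjusted p = 0.00146). For Aqp2, Slc14a2 and Bsnd the departure was 0.77 ± 0.20, 0.065 ± 0.16 and 1.83 ± 0.26 (limma adjusted p = 0.0317, 0.884 and 0.000584). The sizes of these are not settled. The levels of the 3 genes in the 300 culture (1.61, 1.98 and 1.26) lay under the lower quartiles. So did those of Aqp2 and Bsnd after the 600 challenge.

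Rnf186, Ptges and Havcr1 changed in opposite directions over the 2 steps, each past the threshold. These steps share the challenge arrays with the comparison itself. Here and in the next paragraph, ± is the SD (n = 3) for a level and the SE for a difference. Over the step from 600 to 900 mosmol/kg 17.4% of all features were called (6.43% higher, the others lower), and over that from 300 to 600 mosmol/kg 14.4% (6.36% higher and 8.07% lower). Rnf186, a ubiquitin ligase gene, was at 5.93, 6.01 and 5.97 after the 900 challenge and at 3.75, 3.61 and 3.57 after the 600 challenge, and its starting cultures stood at 4.78 ± 0.35 (600) and 5.00 ± 0.14 (300). The difference between its differences was 2.55 ± 0.23 (limma adjusted p = 1.62e-05). Ptges stood at 3.40 ± 0.34 in the 600 culture and at 4.56 ± 0.09 in the 300 culture, the reverse of the order after the challenges, and the difference of the differences was 2.50 ± 0.19 (limma adjusted p = 3.17e-06). Havcr1, the tubule injury marker Kim-1, was at 5.02, 4.81 and 5.46 after the 900 and at 6.55, 6.32 and 6.50 after the 600 challenge, against 5.88 ± 0.13 and 5.21 ± 0.26 in the starting cultures (-2.03 ± 0.21, limma adjusted p = 4.45e-05).

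Of the 36 lists, the targets of ATF4 had the highest share of members that differed beyond the starting cultures: 14 of 25 had a more positive and 0 a more negative difference between the challenges, beside 768 and 717 of the 14499 genes. Shares close to it were those of amino acid transporters (8 and 3 of 20), some of which are on both lists, and S100 genes (6 and 1 of 13). Not far below were leukocyte markers (6 and 3 of 18), matrix proteases and inhibitors (3 and 6 of 19), and the interferon and inflammatory lists given below. In the starting cultures 4 of the ATF4 targets were higher and 8 lower at 600 mosmol/kg. Trib3 was at 2.40 ± 0.26 (under the lower quartiles) and 3.17 ± 0.08 there, and the difference of its differences was 1.58 ± 0.19 (limma adjusted p = 0.000119), and that of Psat1 was 0.93 ± 0.09 (limma adjusted p = 3.71e-05). Of the principal cell list 4 of 21 had a more positive difference and 0 a more negative one. Avpr2 was among the 4, as was Aqp2, whose level in the 300 culture lay under the lower quartiles. The interferon list had 11 and 1 of 24. Of the inflammatory list 10 of 24 had a more positive and 2 a more negative difference. Il1b and Csf3 were among the 10, with differences of -3.49 and -3.39 in the starting cultures and of -2.12 and -2.30 after the challenges. So were Ccl20, which rose, and Cxcl12, Ccl2 and Icam1, which were not called between the challenges (-0.11, -0.11 and -0.09). Fn1 and Ccn1 differed by -0.44 and -0.57 in the starting cultures and exceeded this by -1.15 ± 0.10 and -1.16 ± 0.08 after the challenges (limma adjusted p = 7.96e-06 and 3.05e-06). Akr1b1 differed by 1.32 in the starting cultures and by 0.20 after the challenges, a difference of -1.11 ± 0.09 (limma adjusted p = 4.45e-06).

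**Figure D5:**
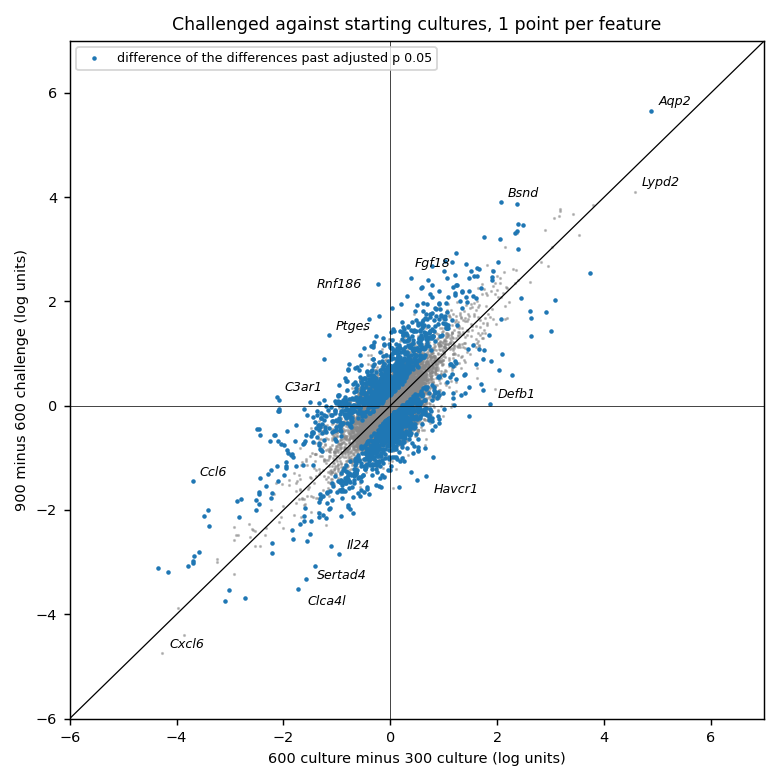
Difference between the 900 and 600 challenges (vertical axis, log units) against the difference between the 600 and 300 cultures before the step (horizontal axis, log units), 1 point a feature. Blue points differ between the axes past an adjusted p of 0.05. Aqp2 and Lypd2 lie at the upper right and Cxcl6 at the lower left, and Havcr1 and Ptges lie on opposite sides of the axes.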

How the data were processed

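RNA was measured on 18 Affymetrix arrays in 6 groups of 3, per the labels. The deposited table holds 1 log value per feature and array for 28328 features. Its log base, background correction and normalization are not given in the sources used here, and the series text names pairwise comparisons in BRB Array Tools. The values are called log units (unit class "other") and were used as deposited by the authors. Of the features, 15295 had 1 gene symbol in GEO's platform annotation, 322 several and 12711 none, so that 14499 symbols were distinct. By Entrez identifier 15264 were matched to RefSeq, which changed 0 symbols.

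Group means were fitted with limma 3.58.1 in R 4.3.3 on all 18 arrays (12 residual degrees of freedom, no trend), with Benjamini-Hochberg adjustment over all features and a threshold of 0.05. No feature was filtered. A p-value for a named gene is from this fit. The fit was tested on simulated data: 43% of genes changed by 0.5 units and 82% of those changed by 1 unit were recovered in the comparison of the 900 and 600 challenges, with 5 false calls. In it 100 features were changed by each size, far fewer than the 7422 called in the real data. The shares recovered and the false calls need not hold there. Gene lists took each gene's brightest feature, that with the highest mean over all arrays. Named for size were the 20 largest rises and 20 largest falls with 1 symbol and no overlap between the groups, 1 feature a symbol, passing over placeholder, olfactory (Olr), vomeronasal and small RNA symbols. For the change with the drug and the difference beyond the starting cultures these were the 10 largest each way, and members of the 36 lists could be named. Genes named for size took the feature with the largest absolute difference where several qualified. Of 710 listed members 652 were measured. The comparison, members and lists were chosen with earlier results of these data known.

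Replicate numbers did not pair the arrays: the correlations of same-numbered deviations were 0.02, 0.0085 and -0.03. Promoter windows came from RefSeq (GRCr8). Alternatives were other normalizations, filters, fits, a replicate block and leaving out each array.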

Additional observations from a re-analysis of the deposited data

Results flagged for a closer look

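The difference between the 900 and 600 challenges changed with cyclosporin A in 13 features by the test of that change (limma adjusted p under 0.05). It became more positive for Cxcl6 (1.55), Ccl20 (1.06), Cxcl11 (0.99), Cxcl1 (0.95), Il1a (0.85), the retinaldehyde dehydrogenase gene Aldh1a3 (0.73), the interferon-induced GTPase gene Ifi47 (0.67), C3 (0.62), Csf3 (0.58) and the apoptosis inhibitor gene Birc3 (0.52), and more negative for Efhd1 (-0.62).

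The same difference departed from that of the starting cultures in 2148 features by the test of this departure. The largest positive departures were those of Rnf186 (2.55), Ptges (2.50), C3ar1 (2.29), Ccl6 (2.25), Fgr (2.13), Fgf18 (2.08), Adm2 (2.06), S100a8 (2.03), Cd163 (2.02) and RT1-DMb (2.00). C3ar1 and S100a8 lay under the lower quartiles in both challenges and were not called between them (limma adjusted p = 0.465 and 0.888), Fgr and Fgf18 lay there in the 600 challenge and Ccl6 in the 900 challenge. The sizes of these departures rest on levels not shown to be above background. A positive departure need not be a rise after the 900 challenge. Ccl6 (-1.45) and Cd163 (-0.44) were lower there than after the 600 challenge, and RT1-DMb (-0.10) was not called (limma adjusted p = 0.740). In the 300 culture Ccl6 was at 6.18 and Cd163 at 5.21, against 2.48 and 2.75 in the 600 culture. The largest negative departures were those of Havcr1 (-2.03), Mmp3 (-1.92), Il24 (-1.89), the defensin gene Defb1 (-1.83), Clca4l (-1.78), Sertad4 (-1.74), Serpinb2 (-1.72), the cytochrome gene Cyp1a1 (-1.68), Wnt5b (-1.68) and F2rl1 (-1.66). Of these, Defb1 (0.04) and Cyp1a1 (-0.20) were not called between the challenges (limma adjusted p = 0.878 and 0.449). The call of F2rl1 was lost in 9 of 18 alternatives and that of Serpinb2 in 1 of 19. Genes described above that also departed included Bsnd (1.83) and Aqp2 (0.77), both with the 600 challenge and the 300 culture under the lower quartiles. Others were Trib3 (1.58), Avpr2 (0.98), Psat1 (0.93), Ccn1 (-1.16), Fn1 (-1.15) and Akr1b1 (-1.11).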

How the results depend on the processing

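The count of 7422 features called between the 900 and 600 challenges stayed within 1.5 times under every alternative tried. It was 7304 with the replicate block (7115 shared), 7072 after median centring, 7356 after quantile normalization, 7600 and 6917 with filters at the lower quartile and at the median, 7892 with an intensity trend and robust prior, 5697 on the 6 arrays alone, 5081 in a plain 2-sample test, and 6417 to 6553 without 1 array. The share of higher calls was 41.8%, with a range of 38.9% to 46.4%. The change with cyclosporin A, 13 features, became 27 and 44 with the filters at the lower quartile and median, 43 with the trend and robust prior, 5 on the arrays compared alone, and 4 to 17 without 1 array; the cause was not tested. The count for the 900 versus 600 challenge difference beyond that of the starting cultures, 2148, was 1939 with the replicate block, 1505 to 2008 without 1 array and 1711 to 2984 otherwise. The 20 largest rises and 20 largest falls kept their call and direction in all 557 values recomputed for them; Bsnd, Clic3 and Gpha2 were left out by the filter at the median. Over all 443 gene results, 109 lost their call in at least 1 alternative, 427 times in all, most often in the plain test (75) and on the arrays compared alone (67). Genes that were not called between the challenges changed sign when 1 array was left out: S100a8 (-0.252 to 0.0927), RT1-DMb (-0.287 to 0.0172), Defb1 (-0.0952 to 0.168) and Nfat5 (-0.065 to 0.184). Actb and Gapdh passed the threshold with the trend and robust prior, and Gapdh also in the plain test. The number of arrays limits the precision, and the files give no background signal.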
